A study of Mus musculus with 6 samples.

Results

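The PYHIN genes of the mouse p200 cluster are neighbours on chromosome 1 that encode interferon-inducible proteins, most of which join a pyrin domain, a protein-protein contact module, to a HIN domain that binds DNA. Here 10 of them were followed: Ifi202b, Ifi203, Ifi204, Ifi205, Ifi207, Ifi209, Ifi211, Ifi213, Mndal and Aim2. They were taken by symbol from a count table of 57010 genes, and all 10 symbols were found. They were chosen by their fold changes between the treatments, which were known beforehand, so those differences are given as a description, with their errors and with no p-value.

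All libraries came from RAW 264.7 cells, a mouse macrophage line transformed by Abelson leukaemia virus and derived from a BALB/c mouse. According to the study design, the cells were driven to an inflammatory state with lipopolysaccharide, a cell wall component of Gram-negative bacteria, and then received extracellular vesicles (EVs) that tendon stem cells had released. In the hypoxic-EV group (3 libraries) the vesicles came from hypoxia-preconditioned tendon stem cells, and in the normoxic-EV group (3 libraries) from normoxic tendon stem cells. Both groups therefore had lipopolysaccharide and vesicles, and cells without vesicles or without lipopolysaccharide were not analysed here. Nothing in the labels tells whether the libraries stem from separate cultures, and p-values measure only the spread between these libraries, which may be technical. Poly(A) RNA was sequenced, and library totals ran from 16751665 to 23422328 counts. Of 10 macrophage markers, 9 were abundant, among them Lyz2, Cd68, Cd14 and Csf1r, and Mertk had 0 to 3 counts a library. Of 12 tendon and stromal markers, Col1a2, Col3a1, Fmod, Thbs4 and Tnmd had 0 counts in all 6 libraries.

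Type I interferon, made by macrophages after lipopolysaccharide, acts through its receptor and the kinases Jak1 and Tyk2 to activate transcription factors that bind the interferon-stimulated response element (ISRE) of its target genes. The p200 genes are among these targets. Aim2 binds cytosolic DNA and assembles an inflammasome with the adaptor ASC, encoded by Pycard, and caspase 1. Ifi204 is the family member usually compared with human IFI16, a DNA sensor upstream of Sting1, and Ifi202b encodes p202, which has HIN domains but no pyrin domain and can hold Aim2 back by binding the same DNA.

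In macrophages given hypoxic-EV, 8 of the 10 p200 genes were lower, 6 of them by 2-fold or more, while the libraries of Aim2 overlapped between the groups and Ifi205 was near the limit of detection. The 10 genes summed to 469, 516 and 485 CPM (counts scaled to library size by the TMM method) in the hypoxic-EV libraries, against 1061, 1089 and 1006 CPM in the normoxic-EV libraries. The groups did not overlap, and the hypoxic-EV mean was 46.6% of the normoxic-EV mean (490.0 ± 24.1 against 1052 ± 42.4 CPM, SD, n = 3 each, a log2 ratio of -1.10). Without Aim2 the remaining 9 genes summed to 39.3% (365.7 ± 21.6 against 929.8 ± 41.8 CPM). In RNA from whole cultures, fewer cells that express a gene and less RNA in each cell cannot be told apart.

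A filter on low counts kept 9 of the 10 genes, all but Ifi205. Of these 9, 8 were called lower by edgeR's quasi-likelihood test at a Benjamini-Hochberg adjusted p under 0.05 over all genes tested, and 0 were called higher. The same test called 44.2% of the 13303 tested genes, with 21.5% lower and 22.7% higher in hypoxic-EV. In 6 of the 9 genes the call came with a difference of at least 2-fold, and 2.38% of all tested genes were called lower by that much. In 8 of the 9, each hypoxic-EV library lay below each normoxic-EV library, which held for 26.1% of all tested genes. The genes were chosen with this comparison in view, so these counts describe them and support nothing further. The median log2 fold change of the 9 was -1.11, against -0.00 over all tested genes. A list of 9 neutrophil and dendritic cell markers also differed, with a summed level of 99.2 to 122 CPM in hypoxic-EV and 239 to 273 CPM in normoxic-EV. S100a8, which lipopolysaccharide can induce in macrophages, made up nearly all of that sum, while Elane had 0 counts throughout, Ly6g at most 1 and Mpo at most 6 counts a library. The 10 macrophage markers summed to 8495 to 8895 CPM in hypoxic-EV and 10513 to 10945 CPM in normoxic-EV, a sum made up mostly of Lyz2. Members of that list went both ways: Csf1r, the receptor gene for macrophage colony-stimulating factor, had 6135, 6983 and 7822 counts in hypoxic-EV and 2791, 2969 and 4069 counts in normoxic-EV, whereas Adgre1, which encodes F4/80, had 1553, 1914 and 2345 counts in hypoxic-EV and 2769, 2963 and 3744 counts in normoxic-EV. The stromal list summed to at most 1.48 CPM in hypoxic-EV and 1.87 CPM in normoxic-EV, and a list of 6 lymphocyte markers to at most 0.826 CPM in hypoxic-EV and 0.525 CPM in normoxic-EV. The part of such cells in the p200 differences was not tested.

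**Figure D1:**
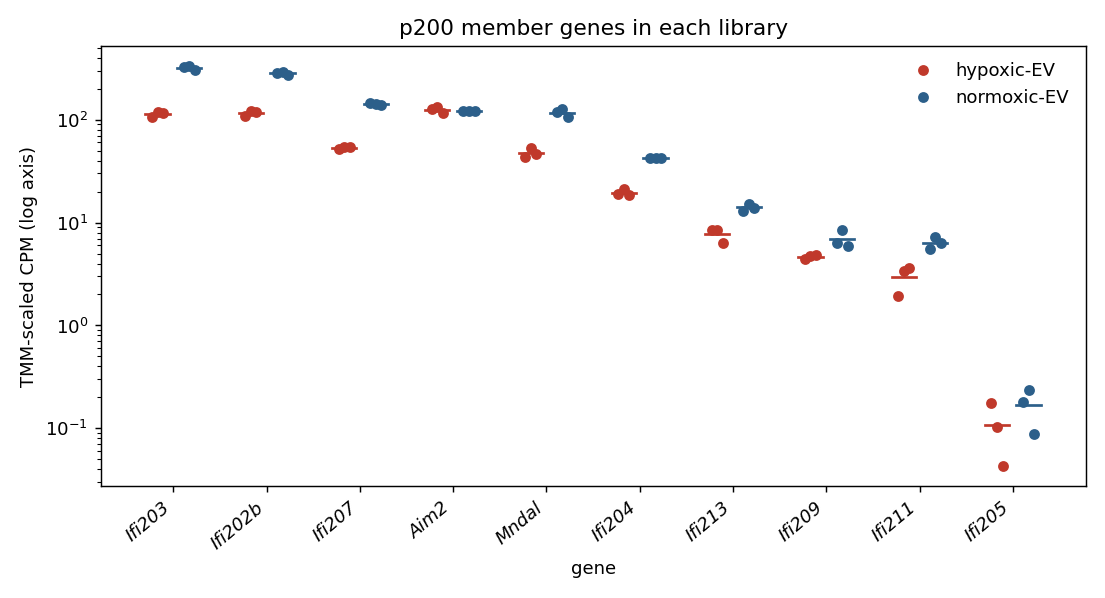
Level of each of the 10 p200 genes in each library, in TMM-scaled CPM on a log axis, with hypoxic-EV at the left of each pair and normoxic-EV at the right. Points are libraries and bars are means of 3. The groups are apart for 8 genes and overlap for Aim2 and for Ifi205, which had 1 to 4 counts a library.

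Aim2, the inflammasome sensor of cytosolic DNA, was the exception (ENSMUSG00000037860, chromosome 1, 173178445 to 173293606, plus strand, GRCm39). It had 126, 131 and 115 CPM in hypoxic-EV and 123, 123 and 122 CPM in normoxic-EV. The ranges overlapped, and the log2 fold change was 0.02 (SE 0.0520). Over all alternative settings tried, it lay between -0.02 and 0.08. None of the 3452 stretches of 100 bases in its annotated transcripts occurred in a transcript of another gene.

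Ifi202b encodes p202, the member without a pyrin domain (173790134 to 173810310, minus strand). It had 108, 120.2 and 118 CPM in hypoxic-EV and 285, 289.7 and 271 CPM in normoxic-EV, a log2 fold change of -1.29 (SE 0.0510). Its transcript shared no 100-base stretch with another gene either, in a reference annotation that is of another mouse strain than these cells. The log2 ratio of its CPM to that of Aim2 was -0.23, -0.13 and 0.04 in the hypoxic-EV libraries and 1.22, 1.24 and 1.16 in the normoxic-EV libraries. These ratios are not corrected for length, so they do not rank the genes, but length cancels from their difference between the groups. The balance of the transcripts for p202 and for Aim2, which is known to compete with p202 for DNA, differed between the groups by -1.31 on the log2 scale.

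Ifi203, which encodes a protein with pyrin and HIN domains (173747973 to 173770238, minus strand), showed the largest difference of the members. Its levels were 106, 119 and 117 CPM in hypoxic-EV and 324, 333 and 301 CPM in normoxic-EV (log2 fold change -1.48, SE 0.0542). In hypoxic-EV it stood at 35.8% of its level in normoxic-EV, with no overlap. Ifi207 (173550993 to 173569313, minus strand) had 51.7, 54.5 and 54.1 CPM in hypoxic-EV and 145, 143 and 138 CPM in normoxic-EV (log2 fold change -1.41, SE 0.0505). Its coefficient of variation was 2.81% in hypoxic-EV, the smallest of the members there, and 2.59% in normoxic-EV.

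Mndal, named for its likeness to the human myeloid nuclear differentiation antigen MNDA (173676692 to 173708447, minus strand), had 43.4, 53.0 and 46.7 CPM in hypoxic-EV and 117, 127 and 106 CPM in normoxic-EV (log2 fold change -1.29, SE 0.0708). Ifi204, the DNA sensor usually set beside human IFI16 (173574859 to 173594509, minus strand), had 18.8, 21.2 and 18.7 CPM in hypoxic-EV and 42.7, 42.2 and 42.1 CPM in normoxic-EV (log2 fold change -1.11, SE 0.0707). Both genes were apart between the groups, and the 3 normoxic-EV libraries of Ifi204 nearly coincided. The authors' deposited table, which lists 462 genes, gives log2 fold changes of -1.28 for Ifi202b, -1.48 for Ifi203, -1.41 for Ifi207, -1.29 for Mndal and -1.11 for Ifi204.

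The other 4 members were scarce. Ifi213 (173393849 to 173426840, minus strand) had 8.38, 8.42 and 6.33 CPM in hypoxic-EV and 12.9, 15.2 and 14.0 CPM in normoxic-EV (log2 fold change -0.88, SE 0.119). Ifi211 (173723911 to 173740612, minus strand) had 1.95, 3.37 and 3.66 CPM in hypoxic-EV and 5.50, 7.24 and 6.27 CPM in normoxic-EV (log2 fold change -1.05, SE 0.183), and hypoxic-EV replicate 1 was the lowest library. Ifi211 is the 6th gene past 2-fold, and it dropped under 2-fold without hypoxic-EV replicate 1 (log2 fold change -0.85) or without normoxic-EV replicate 2 (-0.96), which leaves 5. Ifi209, also known as Pyhin1 or Ifix (173458483 to 173475494, plus strand), differed least of the 8 lower genes. It had 4.43, 4.75 and 4.86 CPM in hypoxic-EV and 6.28, 8.47 and 5.95 CPM in normoxic-EV, a log2 fold change of -0.55 (SE 0.149). That difference leans on normoxic-EV replicate 2: without it the log2 fold change was -0.38 and the gene was no longer called. Ifi205, known as D3 in older work (173839564 to 173859376, minus strand), had 3, 2 and 1 counts in hypoxic-EV and 3, 4 and 2 counts in normoxic-EV. These counts were at or near 3, the most that a count of 0 would allow (0.129 to 0.179 CPM), so no fold change is given for Ifi205.

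Levels can be compared between genes only per length, for which the deposited FPKM values were used. In hypoxic-EV the order was Ifi202b (67.9 ± 3.19 FPKM, SD, n = 3), Aim2 (35.5 ± 2.48), Ifi203 (16.97 ± 0.917), Ifi207 (15.6 ± 0.270), Mndal (13.3 ± 1.25) and Ifi204 (5.49 ± 0.373 FPKM). In normoxic-EV it was Ifi202b (165.9 ± 5.77 FPKM), Ifi203 (47.5 ± 2.46), Ifi207 (41.5 ± 1.02), Aim2 (34.9 ± 0.201), Mndal (32.5 ± 2.997) and Ifi204 (11.9 ± 0.0512 FPKM). Ifi202b led in both groups, and Aim2 held the 2nd place in hypoxic-EV and the 4th place in normoxic-EV. The libraries of Aim2 and Mndal overlapped in normoxic-EV, and the other neighbours named here were apart. Ifi211, Ifi209 and Ifi213 lay between 1.13 and 1.67 FPKM in hypoxic-EV and between 1.94 and 3.55 FPKM in normoxic-EV, where Ifi213 and Ifi209 overlapped, as Ifi211 and Ifi209 did in hypoxic-EV. Ifi205 was last in both groups, at 0.0258 FPKM in hypoxic-EV and 0.0400 FPKM in normoxic-EV.

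**Figure D2:**
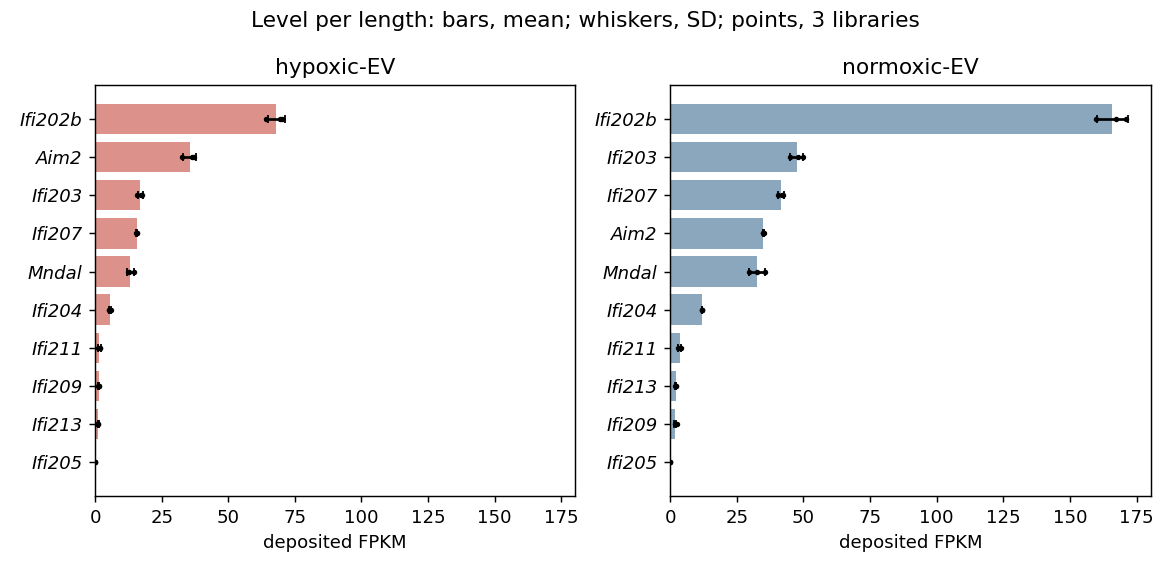
Deposited FPKM of the 10 genes in hypoxic-EV (left) and normoxic-EV (right), sorted by level in each group. Bars are means, whiskers SD and points the 3 libraries. Aim2 is in the 2nd place at 35.5 FPKM in hypoxic-EV and in the 4th place at 34.9 FPKM in normoxic-EV.

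The makeup of the cluster's RNA, taken per length, restates the same fold changes as shares and is no separate result. Aim2 held 22.3 ± 1.55% of the summed FPKM of the 10 genes in hypoxic-EV and 10.2 ± 0.333% in normoxic-EV (SD, n = 3 each). Ifi202b alone held 42.8 ± 1.11% in hypoxic-EV and 48.5 ± 0.189% in normoxic-EV. Ifi202b, Ifi203, Ifi207 and Mndal together held 71.6 ± 1.47% in hypoxic-EV and 84.1 ± 0.426% in normoxic-EV. The share of Ifi204 was 3.46 ± 0.128% in hypoxic-EV and 3.48 ± 0.125% in normoxic-EV. By CPM, which gives long genes more weight, Aim2 held 25.4 ± 1.62% in hypoxic-EV and 11.6 ± 0.414% in normoxic-EV.

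The cluster spans 680.9 kb, from Aim2 at its low-coordinate end to Ifi205. Besides the members, the table holds 4 genes named as p200 family members in the same span: Ifi206, Ifi208, Ifi214 and the pseudogene Ifi203-ps. Of these, 3 passed the count filter and were lower in hypoxic-EV. Ifi208 and Ifi214 passed it through normoxic-EV alone, so their folds and adjusted p-values are given only as a description. Ifi208 fell to 7, 6 and 7 counts in hypoxic-EV, against 27, 27 and 37 counts in normoxic-EV (log2 fold change -2.25 with an SE of 0.315, edgeR adjusted p = 6.03e-06), the largest fold of the family, at a low level. Ifi203-ps had 39, 70 and 73 counts in hypoxic-EV and 123, 163 and 169 counts in normoxic-EV (log2 fold change -1.42 with an SE of 0.163, edgeR adjusted p = 4.25e-07). Ifi214 had 4, 8 and 5 counts in hypoxic-EV and 11, 13 and 15 counts in normoxic-EV (log2 fold change -1.26 with an SE of 0.407, edgeR adjusted p = 0.0154). The call for Ifi214 ended without hypoxic-EV replicate 3 (edgeR adjusted p = 0.0778), without normoxic-EV replicate 2 (edgeR adjusted p = 0.0521) and with DESeq2 (adjusted p = 0.0871). Ifi206 was below the filter, with 11 counts in all in hypoxic-EV and 18 in normoxic-EV.

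Within the span or 500 kb of it lay 52 further genes, many of them olfactory receptor genes or pseudogenes, of which 38 had 0 counts in every library. Only Gm18445 passed the filter, an unprocessed pseudogene between Ifi202b and Ifi205. Of its transcript stretches, read as for Aim2 above, 2.67% also occurred in Ifi207, so Gm18445 is not a neighbour free of family sequence. It fell to 8.73, 10.7 and 9.25 CPM in hypoxic-EV, against 23.0, 25.7 and 20.5 CPM in normoxic-EV (log2 fold change -1.26 with an SE of 0.103, edgeR adjusted p = 2.62e-09). The nearest tested genes outside were Dusp23, a phosphatase gene 717.9 kb before Aim2, and Fh1, the fumarate hydratase gene 1569 kb beyond Ifi205. Dusp23 stood at 0.992 CPM in hypoxic-EV and 0.698 CPM in normoxic-EV (log2 fold change 0.54, edgeR adjusted p = 0.218), and Fh1 rose to 92.5 CPM in hypoxic-EV, against 74.2 CPM in normoxic-EV (log2 fold change 0.32, edgeR adjusted p = 4.16e-05). Farther out, Opn3 beyond Fh1 was lower in hypoxic-EV (log2 fold change -0.85, edgeR adjusted p = 0.000287), and Chml, Slamf8 and Vsig8 were not called.

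**Figure D3:**
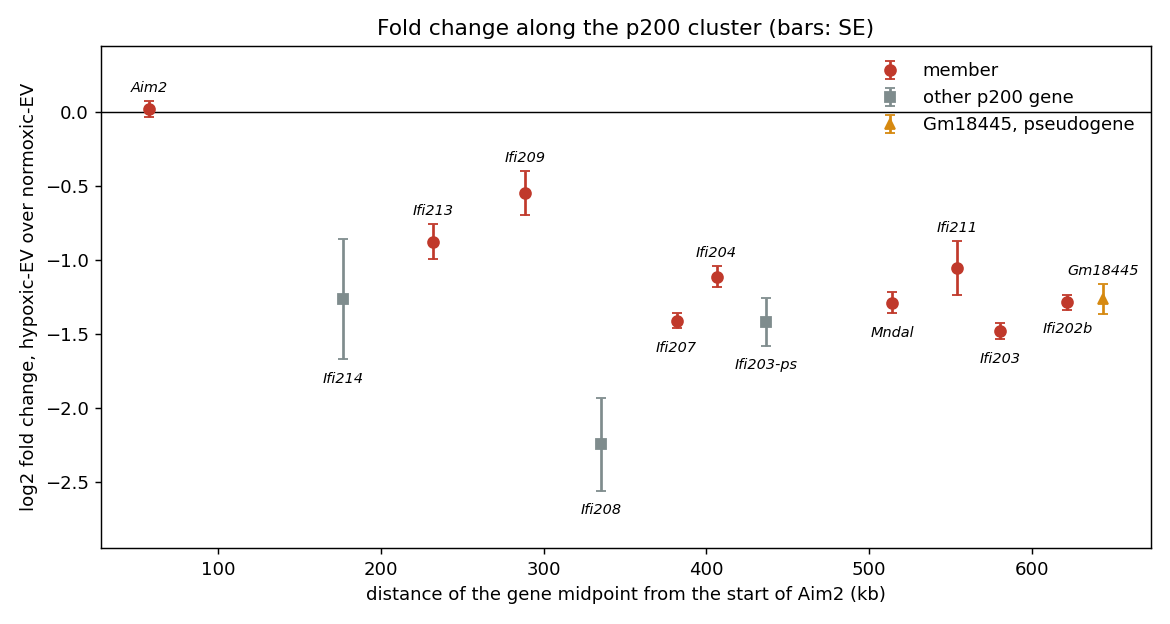
Log2 fold change (hypoxic-EV over normoxic-EV) against the distance of each gene's midpoint from the start of Aim2 in kb, for 9 members, 3 other p200 genes and the pseudogene Gm18445. Bars are SE. Aim2, at the left edge, lies at 0.02 and each other gene lies below 0, down to -2.25 for Ifi208.

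The p200 genes arose by duplication, and copies can share reads. In the GENCODE vM21 transcripts, none of the 100-base stretches of Aim2 or Ifi202b and 0.790% of those of Ifi207 also occurred in another gene. The share was 2.84% for Ifi203, 3.30% for Ifi213, 6.38% for Mndal, 10.7% for Ifi204, 15.04% for Ifi205 and 16.9% for Ifi209. Ifi211 stood out with 56.9%, of which the greatest overlap was with Ifi205, so its count is the least certain. These shares come from the C57BL/6J reference, whereas RAW 264.7 is of BALB/c origin and mouse strains differ in their p200 genes. The sources used here do not say how the authors' counting treated reads with several matches.

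Next, promoters were read for letters that the copies share. The ISRE is known to be built of repeats of GAAA. An earlier scan of promoters for preset motifs, the ISRE among them, was dropped, and its outcome is not reported here. RefSeq promoters on GRCm38.p6, which run from 250 bases before to 50 bases after a start site, were used for 9 members and for Ifi206, Ifi208 and Ifi214, 12 p200 genes in all; Ifi204 has no entry. All stretches of 10 bases on either strand were counted, and 7 stretches tied as the most widely shared, each in promoters of 7 of the 12 genes. These are GGAAATCGAA, GAAATCGAAA, AAATCGAAAG, AAAGCTATGA, AAGCTATGAA, AGCTATGAAC and, read on the opposite strand, CATAGCTTTC. They overlap in a single run of 20 bases. At least 1 of the 7 occurred in 7 of the 9 members and in 0.303% of 27025 genes, a contrast that follows in part from how the stretches were picked. The sequences around them are printed because they show how alike the copies are, with the bases of any of the 7 stretches in capitals and the position of the first capital counted from the start site.
Ifi203 (second start, -36, chr1:173942489-173942548, minus strand): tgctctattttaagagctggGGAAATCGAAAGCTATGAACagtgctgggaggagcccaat
Mndal (first start, -37, chr1:173880185-173880244, minus strand): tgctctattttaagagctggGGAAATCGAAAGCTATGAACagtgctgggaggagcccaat
Ifi213 (-74, chr1:173599307-173599366, minus strand): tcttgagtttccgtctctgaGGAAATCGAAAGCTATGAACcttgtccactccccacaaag
Ifi207 (-42, chr1:173741812-173741871, minus strand): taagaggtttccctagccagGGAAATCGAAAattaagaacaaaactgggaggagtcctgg
Ifi211 (-31, chr1:173913038-173913097, minus strand): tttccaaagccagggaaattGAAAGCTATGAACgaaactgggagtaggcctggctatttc
Ifi205 (-128, chr1:174031844-174031903, minus strand): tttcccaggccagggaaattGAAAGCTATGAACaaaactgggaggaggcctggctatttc
Ifi209 (-78, chr1:173630761-173630820, plus strand): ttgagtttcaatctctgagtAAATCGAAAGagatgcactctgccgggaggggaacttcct

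The windows of Ifi203 and Mndal were identical over all 60 bases, and those of Ifi211 and Ifi205 matched at 56 of 60. Ifi203, Mndal and Ifi213 held the whole 20-base run, as did Ifi206 and Ifi208, and the window of Ifi208 was identical to that of Ifi213. Ifi203 and Mndal each have another RefSeq start whose promoter held none of the stretches. Which start these cells use was not tested. Ifi207 kept the first 11 bases of the run, Ifi211 and Ifi205 the last 13, and Ifi209 kept 10. Outside the family, 72 genes held at least 1 of the stretches and 22 of them were tested, of which 5 were lower, 8 higher and 9 not called in hypoxic-EV. Of the 6 tested genes outside the family with GAAATCGAAA, 1 was lower, 2 were higher and 3 were not called. Parp11, an ADP-ribosyltransferase gene, had a log2 fold change of -0.40, Pnrc1, a nuclear receptor coactivator gene, of 0.56, and Ripk1, a kinase gene of cell death signalling, of 0.28 (edgeR adjusted p = 0.000479, 2.56e-07 and 0.000698). Rigi, a sensor gene of viral RNA, Serpinb6a and Gm26797 had -0.06, -0.01 and -0.44 (edgeR adjusted p = 0.473, 0.861 and 0.0806). Over all tested genes, 21.5% were lower, 22.7% higher and 55.8% not called. Whether the stretches bear on the level of any gene was not tested.

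Aim2 and Ifi202b held none of the 7 stretches in the promoters read, so these are printed whole and with no capitals, for contrast with the windows of the other members. For Aim2 only this RefSeq start was read, and a start at the low-coordinate end of the deposited gene was not examined.
Aim2 (chr1:173420354-173420653, plus strand): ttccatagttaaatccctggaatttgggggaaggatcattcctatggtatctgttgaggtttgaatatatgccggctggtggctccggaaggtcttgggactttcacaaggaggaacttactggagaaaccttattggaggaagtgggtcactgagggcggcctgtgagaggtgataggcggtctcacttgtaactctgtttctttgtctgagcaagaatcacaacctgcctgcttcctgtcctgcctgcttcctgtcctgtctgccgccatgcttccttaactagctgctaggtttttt
Ifi202b (chr1:173982795-173983094, minus strand): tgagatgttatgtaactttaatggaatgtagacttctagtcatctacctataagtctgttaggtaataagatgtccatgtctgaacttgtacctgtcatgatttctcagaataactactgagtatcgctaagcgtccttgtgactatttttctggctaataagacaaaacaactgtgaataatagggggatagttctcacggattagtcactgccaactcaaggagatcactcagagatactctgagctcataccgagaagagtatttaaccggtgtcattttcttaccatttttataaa

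Aim2 had a log2 fold change of 0.02 and Ifi202b of -1.29. Whether having or lacking the stretches bears on these values was not tested. A match describes letters in a window and is not shown to be a bound site.

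The wider interferon programme was compared with the p200 genes through lists of other genes. Of 50 interferon-stimulated genes outside the family, 47 were tested, and 16 were lower, 9 were higher and 22 were not called in hypoxic-EV (median log2 fold change -0.07). Without normoxic-EV replicate 3 that median was -0.14. Of all tested genes, 21.5% were lower, 22.7% higher and 55.8% not called, and 46.8% of the list was not called. Gbp2, a guanylate-binding protein gene of host defence, fell to 1.95 ± 0.331 CPM in hypoxic-EV, against 5.37 ± 0.268 CPM in normoxic-EV (SD, n = 3 each), which is -1.47 as a log2 ratio (edgeR adjusted p = 6.40e-07). It was the only called gene of the list that was lower by 2-fold or more. Isg15, which encodes a ubiquitin-like modifier, and Samd9l, a gene of antiviral defence, had log2 fold changes of -0.92 and -0.54 (edgeR adjusted p = 6.73e-07 and 7.69e-08). Ifitm3, which blocks viral entry at membranes, rose by 0.45 on the log2 scale to 701 ± 18.7 CPM in hypoxic-EV, against 511 ± 11.8 CPM in normoxic-EV (edgeR adjusted p = 4.99e-08).

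Genes that carry the interferon signal were looked at next. Of 18 interferon, receptor, kinase and transcription factor genes, 16 were tested, and 4 were lower, 1 was higher and 11, or 68.8%, were not called, against 55.8% of all tested genes (median log2 fold change -0.02). Jak2, a kinase of the interferon gamma receptor and of other cytokine receptors, fell to 145 ± 8.63 CPM in hypoxic-EV, against 243 ± 7.83 CPM in normoxic-EV (SD, n = 3 each), which is -0.74 as a log2 ratio (edgeR adjusted p = 1.60e-10). Usp18, a feedback inhibitor of the type I interferon receptor, and the transcription factor gene Irf7 had log2 fold changes of -0.40 and -0.34 (edgeR adjusted p = 0.000298 and 0.000686), and Irf5 had 0.33 (edgeR adjusted p = 0.000256). Ifnb1, the gene of interferon beta, had 0 counts in each hypoxic-EV library and 1, 2 and 2 counts in the normoxic-EV libraries, so its level was at the limit of detection in both groups.

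Partners of the DNA sensors moved both ways. Of 25 genes of cytosolic DNA sensing and the inflammasome, 21 were tested, and 7 were lower and 8 higher (median log2 fold change 0.13). That left 28.6% not called, against 55.8% of all tested genes, of which 21.5% were lower and 22.7% higher. Pycard, whose product joins Aim2 to caspase 1 and which RAW 264.7 cells are known to lack, had 2, 5 and 2 counts in hypoxic-EV and 5, 3 and 3 counts in normoxic-EV. Aim2 was thus at over 100 CPM in cells with next to no transcript of its adaptor. Casp1 fell to 83.3 ± 5.08 CPM in hypoxic-EV, against 103 ± 3.47 CPM in normoxic-EV (SD, n = 3 each), which is -0.31 as a log2 ratio (edgeR adjusted p = 9.13e-05). Casp4, encoding mouse caspase 11, the sensor of cytosolic lipopolysaccharide, and Nlrp3, another inflammasome sensor gene, had log2 fold changes of -1.19 and -0.78 (edgeR adjusted p = 8.07e-13 and 1.50e-10). Ikbke, a kinase gene of the antiviral response, had -0.39 (edgeR adjusted p = 1.86e-05), and Rnaseh2c, a subunit gene of the enzyme that removes RNA from RNA-DNA hybrids, 0.96 (edgeR adjusted p = 3.78e-09). Cgas and Sting1, the sensor and adaptor of the other main DNA-sensing route, missed the threshold, with 0.11 on the log2 scale (SE 0.0559, edgeR adjusted p = 0.113) for Cgas and 0.13 (SE 0.0723, edgeR adjusted p = 0.139) for Sting1.

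**Figure D4:**
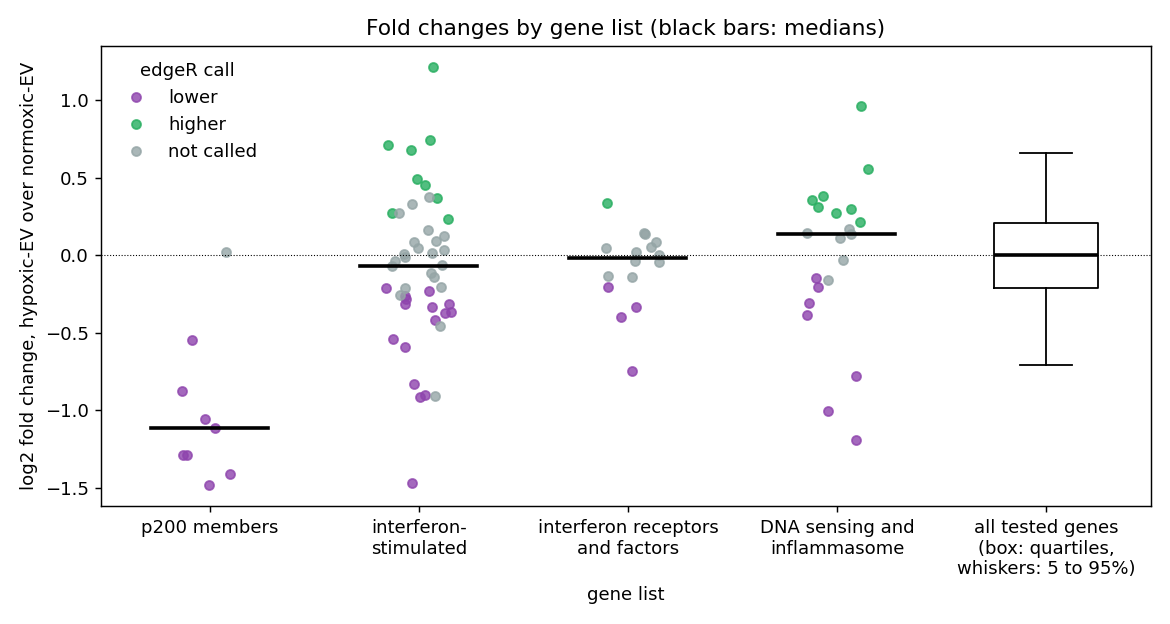
Log2 fold change (hypoxic-EV over normoxic-EV) of each tested gene of 4 lists, coloured by edgeR call, with black bars at the list medians, beside a box of quartiles with whiskers at the 5th and 95th percentiles over 13303 genes. Members have a median of -1.11, and the medians of the other lists lie between -0.07 and 0.13.

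Some genes elsewhere in the genome had almost the same profile over the 6 libraries as the summed p200 genes. Likeness was the root mean square difference of log2 CPM, each gene centred on its own mean, among 10119 genes with at least 5 CPM in a group. The nearest were Plk2, a stress-induced kinase gene (difference 0.0490), Casp4 (0.0509), Gm7592 (0.0563), Nupr1, a stress-response gene (0.0630), and Batf, an AP-1 family transcription factor gene (0.0649). Batf had 2.46 CPM in hypoxic-EV and 5.63 CPM in normoxic-EV, so it was eligible through normoxic-EV alone. The log2 fold changes of the 5 genes lay between -1.19 and -1.01. With 2 groups that stand apart, such likeness mostly reflects an equal fold between the groups.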

How the data were processed

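Counts of poly(A) RNA from 3 hypoxic-EV and 3 normoxic-EV libraries were used, grouped by the treatment in the labels. Per the submitters' processing notes, HISAT2, featureCounts, DESeq2 and GRCm39 were used, with versions, annotation, strand setting and handling of multiply matching reads not given in the sources used here. The deposited values are whole-number counts, FPKM values, a signal of counts divided by size factors, and a table of their own comparison with log2 fold changes, a test score, p-values and group means. FPKM of the 10 members equalled counts divided by library total and a fixed length.

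Counts were tested with edgeR 4.0.16 (R 4.3.3): filterByExpr (minimum count 10, minimum total 15) left 13303 genes, TMM scaling, quasi-likelihood F-test, two-sided, Benjamini-Hochberg adjustment over all genes, threshold 0.05. CPM are TMM-scaled, values after ± are SD, and an SE is the log2 fold change divided by the square root of F. DESeq2 1.42.0 was an alternative. The tests were checked on simulated data. Pairs of libraries of a group differed by more than counting noise (chi-square per degree of freedom 2.72 to 5.84), a spread that may be technical. Each library was counted as 1 sample, though this spread does not show that they stem from separate cultures. Limits from counts cover counting error only, as the reads carry no molecular identifiers.

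Members and lists were chosen with earlier results of these data known. Of 152 symbols looked up, 144 matched, and 8, all older or alternative p200 names, did not. Named genes are the members, other p200 genes, flanking genes past the filter, the 4 genes of lowest p of each list, partner genes from the lists, of which 1 is not reported here, and the 5 nearest profiles. The search for shared promoter stretches, the nearest genes outside the span and the genes named beside those stretches were chosen after values were seen. Promoters came from RefSeq on GRCm38.p6 and transcripts from GENCODE vM21, while gene coordinates are those of the deposited table.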

Additional observations from a re-analysis of the deposited data

How the results depend on the processing

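Under 10 alternatives (DESeq2, RLE scaling, no low-count filter, the replicate number as a block, and each of the 6 libraries left out), 7 or 8 members were called lower and 0 higher. The 7 came without normoxic-EV replicate 2, where Ifi209 lost its call. The other p200 genes called lower numbered 2 or 3, only a description, as Ifi208 and Ifi214 passed the filter through normoxic-EV alone. In the main fit, 21.5% of all tested genes were called lower and 22.7% higher. Called genes of the interferon-stimulated list numbered 11 to 16 lower and 7 to 10 higher, and of the DNA-sensing list 5 to 7 lower and 7 or 8 higher. The log2 ratio of the summed members stayed between -1.14 and -1.07 with library totals, DESeq2 size factors, FPKM, or any library left out, and was -1.35 without Aim2, an alternative chosen after seeing the data. By CPM in place of FPKM, 4 members in hypoxic-EV and 5 in normoxic-EV changed rank, since gene lengths differ. Same-numbered libraries did not deviate together (correlations -0.0156, -0.0177 and -0.0176), so the numbers are not taken as pairs. With the replicate block, 8 members were called lower and 5662 genes in all, against 5877 without it. With 3 libraries a group, and at most 141 counts a library for Ifi211, small differences of scarce members could not be resolved.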
